A study of Mus musculus with 6 samples.

Results

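The renin-angiotensin system is a hormone cascade that sets vascular tone and salt balance. Renin cuts angiotensinogen (Agt) to angiotensin I, angiotensin-converting enzyme (Ace) trims it to angiotensin II, and aminopeptidases shorten that peptide further. Angiotensin II constricts and remodels arteries mainly through the type 1 receptor, which mice carry as a pair of genes, Agtr1a and Agtr1b. The type 2 receptor, Agtr2, is abundant in fetal mesenchyme, low in most adult tissue, and often described as opposing the type 1 receptor.

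Of the 18476 genes in the deposited table, 9 were followed here by their symbols: the precursor Agt, the enzymes Ace, Enpep and Lnpep, the receptors Agtr1a, Agtr1b, Agtr2 and Mas1, and Atp6ap2, the prorenin receptor. Agtr2 was chosen by its measured difference in level between the groups of these same libraries, and the other genes were picked with earlier results of these data known. Their differences between groups are therefore a description and support nothing on their own. Femoral arteries of wild-type C57BL/6 mice were taken 3 days after wire injury and sequenced in bulk as poly(A)-enriched RNA. The injured vessels of one group had been treated perivascularly with vasostatin-2, a fragment of chromogranin A, and those of the other with saline, with 3 libraries per group, described as biological replicates, in 1 batch. The labels give no dose, sex or age, and no uninjured artery is among the samples, so levels before injury are not known from these data.

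The 6 libraries held between 19333730 and 20105995 estimated counts, so depth was nearly equal. The labels name vascular smooth muscle cells, and all 8 contractile smooth muscle markers checked (Myh11, Acta2, Tagln and others) were detected in every library. Markers of other cells were detected as well, among them all 8 endothelial, all 8 adventitial fibroblast, all 7 macrophage and all 7 adipocyte markers, so the RNA came from several cell types. In such bulk RNA, fewer cells of a type and less RNA per cell cannot be told apart. Single libraries stood apart. Schwann cell markers summed to 582 TPM in saline replicate 3, against between 32.3 and 63.3 TPM in the other 5 libraries. Red cell markers summed to 43391 TPM in saline replicate 2, against at most 9494 TPM elsewhere, and skeletal muscle markers to 1321 TPM in vasostatin-2 replicate 3, against at most 130.8 TPM elsewhere. Transcripts of 4 Y-linked genes were present in every library. Agtr2 and Atp6ap2 are X-linked.

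Sequence is shown first where it bears on what the counts can say. Agtr1a and Agtr1b encode near-identical receptors, and reads that fall wholly within an identical stretch cannot be told apart. Their coding sequences in the GENCODE annotation of GRCm38 are both 1077 bases long and share 978 of them (90.8%), with a longest identical run of 66 bases. No stretch of 100 bases is identical in both. The first 90 coding bases are printed below in mRNA sense, from chr13:30380954-30381043 on the + strand for Agtr1a and from chr3:20316351-20316440 on the - strand for Agtr1b, with the 8 bases that differ in capitals.
Agtr1a: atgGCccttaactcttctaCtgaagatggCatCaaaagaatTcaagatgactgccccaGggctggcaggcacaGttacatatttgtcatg
Agtr1b: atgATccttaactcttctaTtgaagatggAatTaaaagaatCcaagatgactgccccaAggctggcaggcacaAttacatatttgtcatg
The sequence before the start of Agtr2, the gene chosen for its difference between the groups, is also given. It is the 250 bases ahead of the RefSeq start on GRCm38.p6, chrX:21484374-21484623 on the + strand, with the motif TATATA in capitals.
Agtr2: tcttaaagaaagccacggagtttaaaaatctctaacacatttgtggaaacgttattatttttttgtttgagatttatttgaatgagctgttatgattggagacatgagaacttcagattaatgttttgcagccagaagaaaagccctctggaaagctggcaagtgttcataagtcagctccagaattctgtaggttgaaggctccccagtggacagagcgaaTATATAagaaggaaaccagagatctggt
That motif begins 28 bases before the RefSeq start and was found, on either strand, in 5.25% of the 32851 RefSeq promoter windows of the same length. The window also holds CCAAT on one strand or the other, as 33.8% of windows do. Neither strand holds TATAAA, which 12.4% of windows hold, or the GC box GGGCGG, which 32.7% hold. The AP-1 motif TGANTCA (6.75% of windows), the cAMP response motif TGACGTCA (1.55%) and a CArG box (1.47%) were not among its letters either. Of the 7 other genes of the 9 that have a RefSeq window, none holds TATATA. The deposited row for Agtr2 begins 75 bases upstream of the RefSeq start.

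Agtr2 lies on chromosome X from 21484549 to 21488833 in the deposited coordinates (ENSMUSG00000068122). Its estimated counts were 292, 221 and 367 in the vasostatin-2 libraries, against 51, 56 and 92 in the saline libraries. As TPM, which scales for gene length and library size, these were 10.64, 7.90 and 13.38 with vasostatin-2 and 1.90, 1.97 and 3.37 with saline. The groups did not overlap: the lowest vasostatin-2 library held 2.34 times the TPM of the highest saline library. The mean was 10.6 ± 2.74 TPM with vasostatin-2 and 2.41 ± 0.829 TPM with saline (SD, n = 3 each). The log2 fold change of vasostatin-2 over saline was 2.15 (SE 0.28), a 4.44-fold difference with a 95% interval from 2.78 to 7.08. No p-value is given for it, as it was chosen for this difference. By the quasi-likelihood test of edgeR, with p adjusted after Benjamini and Hochberg, 0 of 14557 genes passed an adjusted p of 0.05 (0.0%), so Agtr2 did not pass either, and 1040 genes (7.14%) had an unadjusted p under 0.05. DESeq2 called 113 genes (0.776%), 49 of them higher with vasostatin-2 (0.337%), and Agtr2 was the only one of the 9 among them. In the authors' deposited table, 98 of 18401 genes with a q-value were under 0.05 (0.533%), with Agtr2 as the only one of the 9. Both calls rest on the same libraries by whose difference Agtr2 was chosen, so they add no support. Among the 13763 tested genes averaging 1 CPM or more, 13 had a log2 fold change at or above that of Agtr2, itself counted. With 1 library left out at a time, that of Agtr2 lay between 1.95 and 2.45.

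**Figure D1:**
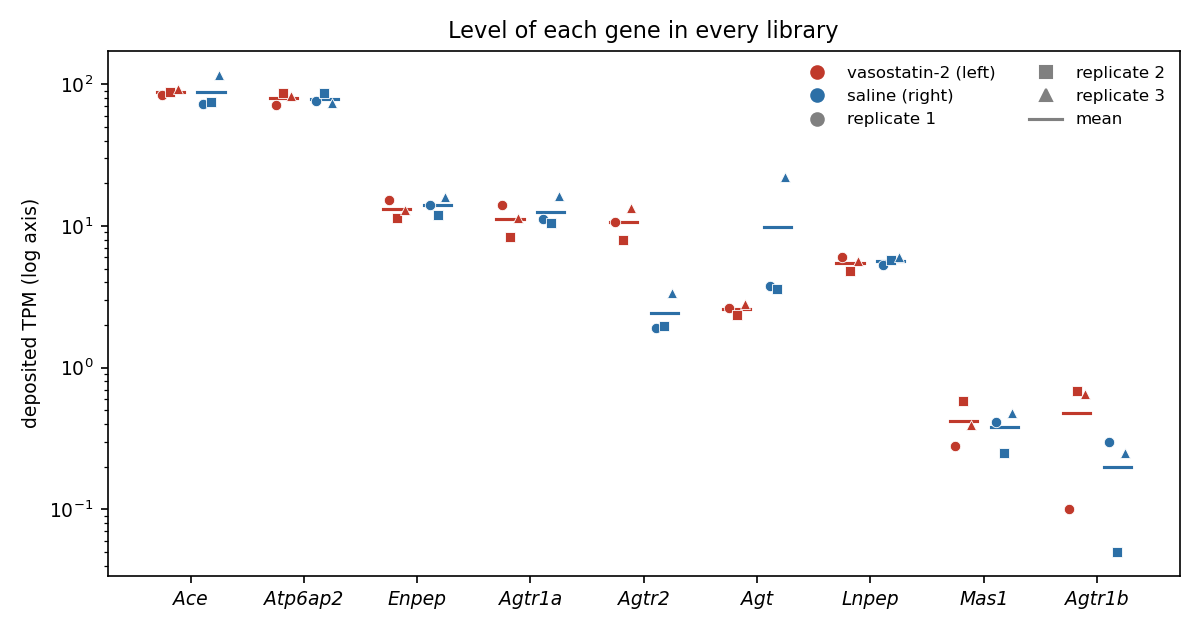
Deposited TPM (log axis) of the 9 genes, in order of their mean over the 6 libraries. Points are libraries, short bars are group means, and vasostatin-2 is drawn left of saline. The vasostatin-2 libraries of Agtr2 sit between 7.90 and 13.38 TPM, all above the saline libraries, while Agt is set apart by 1 saline library at 22.21 TPM.

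Markers of adventitial fibroblasts overlapped between the groups as a list. Their summed level lay between 2841 and 3280 TPM with vasostatin-2 and between 1736 and 2904 TPM with saline, and none of the 8 was at 0 in any library. All 8 had a positive log2 fold change, and in 3 of them, Pdgfra, Dcn and Lum, the groups did not overlap in CPM, counts scaled to library size, where 6.07% of all tested genes were higher without overlap. In TPM, Dcn and Lum did overlap, and Dpt, Clec3b and Col14a1 were highest in a saline library. Per 1000 TPM of those 8 markers, Agtr2 stood at 3.44, 2.41 and 4.71 TPM in vasostatin-2 libraries, against 0.827, 1.13 and 1.16 TPM in saline libraries. On that scale the groups did not overlap. Agtr2 was chosen for its difference between these libraries, so ratios built on its level add no support. The part of fibroblast content in the Agtr2 difference was not tested. Relative to Pdgfra alone, a receptor that marks fibroblasts, the ratio of Agtr2 was 0.123 ± 0.0200 with vasostatin-2 and 0.0420 ± 0.0172 with saline (SD, n = 3 each). Which cells carried the Agtr2 transcripts was not tested.

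The 6 genes outside the set whose profile came closest to that of Agtr2 were named by the smallest root mean square difference of log2 CPM, centred on each gene's mean, over the 6 libraries. The nearest was Crabp1, a retinoic acid-binding protein, with a difference of 0.22. Its level was 62.4, 60.3 and 81.4 CPM in vasostatin-2 arteries, against 15.0, 19.4 and 24.1 CPM in saline arteries. Next came Nptx1, a secreted neuronal pentraxin, at 0.36 and Hmga2, an architectural chromatin protein of embryonic and growing cells, at 0.42. Hmga2 stood at 17.2, 19.8 and 20.8 CPM in vasostatin-2 arteries, against 3.08, 7.18 and 8.07 CPM in saline arteries. Ppl, the plakin periplakin, followed at 0.53, with 36.1 ± 5.37 CPM in vasostatin-2 libraries and 12.9 ± 4.39 CPM in saline libraries. Chrna1, the muscle acetylcholine receptor subunit, and Dlk1, a transmembrane protein of progenitor cells, were both at 0.54. Chrna1 was highest, at 5.92 CPM, in the vasostatin-2 library with the raised skeletal muscle markers, replicate 3. Agtr2, at 18.7 CPM, Crabp1, Hmga2 and Dlk1 were also highest in that library. Nptx1 and Ppl were highest in vasostatin-2 replicate 2. The part of skeletal muscle tissue in these levels was not tested. The search picks genes that differ between the groups as Agtr2 does, so their differences are no further evidence for it.

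**Figure D2:**
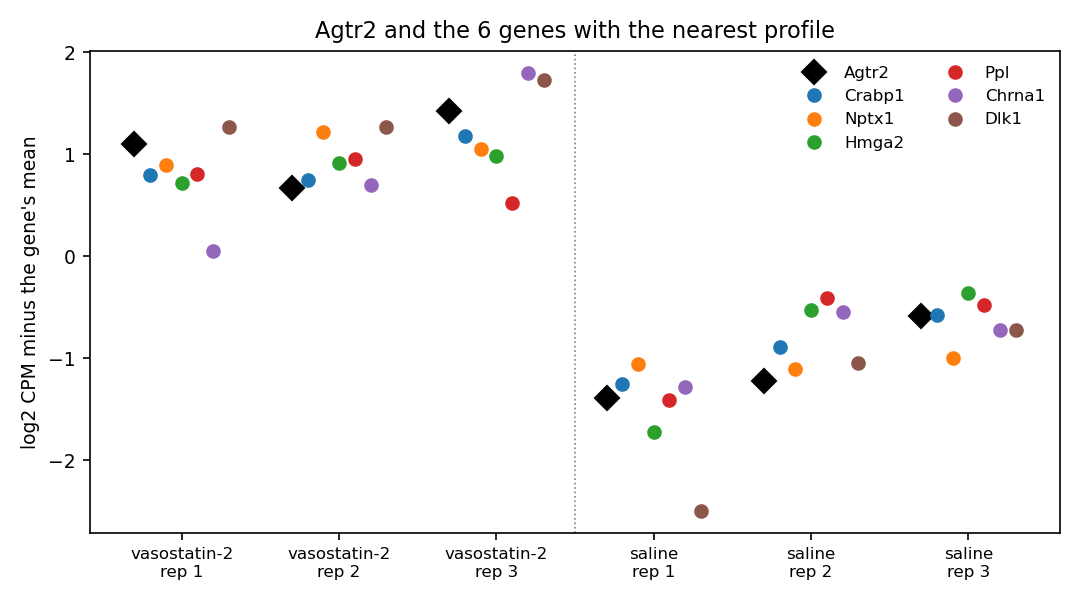
Level of Agtr2 (black diamonds) and of the 6 genes with the nearest profile (circles) in each library, as log2 CPM minus the gene's own mean. In each gene every vasostatin-2 library lies above every saline library, and Dlk1 in saline replicate 1 is the lowest point.

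The type 1 receptor gene Agtr1a showed no such separation. It lies on chromosome 13 from 30336356 to 30382867 and had 14.04, 8.36 and 11.40 TPM with vasostatin-2, against 11.23, 10.46 and 16.24 TPM with saline. The groups overlapped, and its log2 fold change was -0.17 (SE 0.22), with a 95% interval from -0.69 to 0.36 and an edgeR adjusted p of 0.906. A change of 2-fold in either direction lies outside that interval. Agtr2 and Agtr1a can also be set against each other within a library. The ratio of Agtr2 to Agtr1a in TPM was 0.758, 0.945 and 1.17 in vasostatin-2 libraries, against 0.169, 0.188 and 0.208 in saline libraries. Type 2 receptor transcripts were thus near the level of type 1 receptor transcripts with vasostatin-2 and well below it with saline.

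Agtr1b and Mas1 were too low to judge. Agtr1b, on chromosome 3 from 20314473 to 20367177, did not pass the low-count filter, with estimated counts of 2.06, 14.08 and 13.19 with vasostatin-2 and 6.03, 1.01 and 4.98 with saline. Summed over a group these make 29 counts with vasostatin-2 (exact Poisson 95% interval 19.4 to 41.6) and 12 counts with saline (6.20 to 21.0). The intervals overlap narrowly, which is no test between the groups. They cover counting error only and leave out the scatter between libraries, which ran from 2.06 to 14.08 with vasostatin-2 alone. In all 6 libraries the estimated counts of both Agtr1a and Agtr1b were not whole numbers. This is not particular to the pair. Over all genes and libraries 65.6% of estimated counts were whole, and Mas1 (4 libraries) and Atp6ap2 (2 libraries) also had counts that were not. How many of the Agtr1b counts were misassigned Agtr1a reads was not tested. Mas1, the receptor for angiotensin-(1-7), passed the filter with 9.99, 17.01 and 10 estimated counts with vasostatin-2 and 12.02, 7 and 14.55 with saline. Its 95% interval for the log2 fold change, from -0.84 to 1.09, corresponds to between 0.558-fold and 2.13-fold (edgeR adjusted p = 0.963).

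The Mas1 row has a further limit. In the deposited table it runs on chromosome 17 from 12741312 to 12868150, a span of 126839 bases on the + strand. The row holds 3 RNAcentral entries and 11 RefSeq entries, and which gene each belongs to was not checked. RefSeq places Mas1 from 12838841 to 12868150, 29310 bases on the - strand. RefSeq places the imprinted non-coding gene Airn from 12741311 to 12859884 on the + strand, so the deposited span starts within 1 base of the Airn start. How many of the counts came from Airn was not tested.

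Agt, the sole precursor of the angiotensin peptides, had 2.65, 2.37 and 2.82 TPM with vasostatin-2, against 3.77, 3.61 and 22.21 TPM with saline. Its deposited row spans chromosome 8 from 124556587 to 124569706. The groups did not overlap, but the distance between them was set by saline replicate 3, which held 384 estimated counts where the other saline libraries held 64 and 65 and the vasostatin-2 libraries 46, 42 and 49. Its log2 fold change was -1.89 (SE 0.74; edgeR adjusted p = 0.684), and -0.50 without that library (edgeR adjusted p = 0.677). Over the 15 alternatives run, the adjusted p of Agt lay between 0.208 and 1.000. The same library carried the high Schwann cell markers, all 8 of which were highest there. The part of nerve tissue in the Agt level was not tested. With Agtr2, Agt made 2 of the 8 tested genes in which the groups did not overlap, where 12.8% of all tested genes did so. Agtr2 was chosen for its difference between the groups, so its place in that count was set beforehand. The count can therefore not be read against that share.

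**Figure D3:**
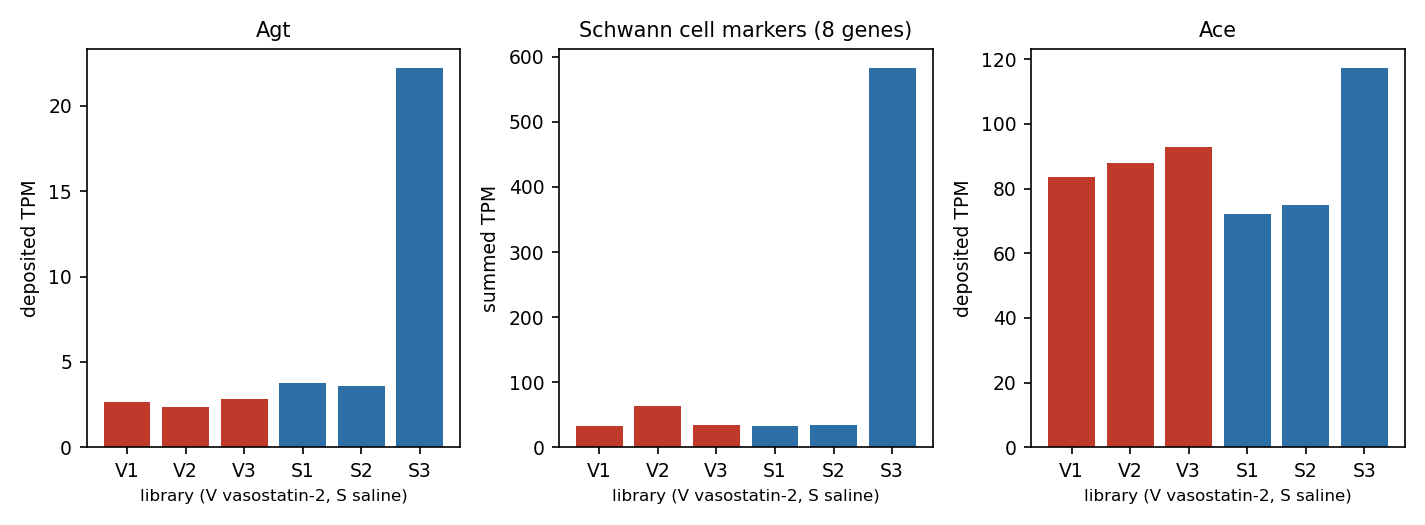
TPM of Agt, summed TPM of 8 Schwann cell markers and TPM of Ace in each library (V vasostatin-2, S saline, numbers are replicates). Saline replicate 3 is the highest library in each panel, by far so in Agt (22.21 TPM) and in the Schwann cell markers (582 TPM).

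Ace had the highest mean TPM of the 9, though it stood above Atp6ap2 in only 4 of the 6 libraries. It had 83.46, 87.83 and 92.86 TPM in vasostatin-2 libraries, against 72.12, 74.91 and 117.22 TPM in saline libraries. The enzyme sits on endothelium and converts angiotensin I to angiotensin II. Its highest value was again in saline replicate 3, and the saline libraries on their own spanned both sides of the vasostatin-2 range. The means were nearly equal, at 88.05 ± 4.70 TPM with vasostatin-2 and 88.1 ± 25.3 TPM with saline, and the log2 fold change was 0.03 (SE 0.18), with a 95% interval from -0.40 to 0.45 (edgeR adjusted p = 0.985). Without saline replicate 3 it was 0.27. The deposited row spans chromosome 11 from 105965609 to 105989964.

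The enzymes that take angiotensin II further overlapped between the groups. Enpep, aminopeptidase A, which makes angiotensin III, had 15.32, 11.46 and 12.99 TPM with vasostatin-2, against 14.12, 11.93 and 16.05 TPM with saline. Lnpep, a transmembrane aminopeptidase that binds angiotensin IV, had 6.04, 4.78 and 5.63 TPM with vasostatin-2, against 5.28, 5.74 and 6.07 TPM with saline. The 95% intervals of their log2 fold changes ran from -0.38 to 0.24 for Enpep and from -0.34 to 0.24 for Lnpep. Atp6ap2, which binds prorenin and is also an accessory subunit of the vacuolar proton pump, had 71.09, 86.46 and 83.34 TPM with vasostatin-2, against 75.98, 87.30 and 73.84 TPM with saline. Its interval ran from -0.26 to 0.31. The rows lie on chromosome 3 from 129269177 to 129332749 (Enpep), chromosome 17 from 17521415 to 17624489 (Lnpep) and chromosome X from 12587759 to 12617051 (Atp6ap2). Groups overlapped in all 3 genes, and the smallest edgeR adjusted p among them was 0.935.

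**Figure D4:**
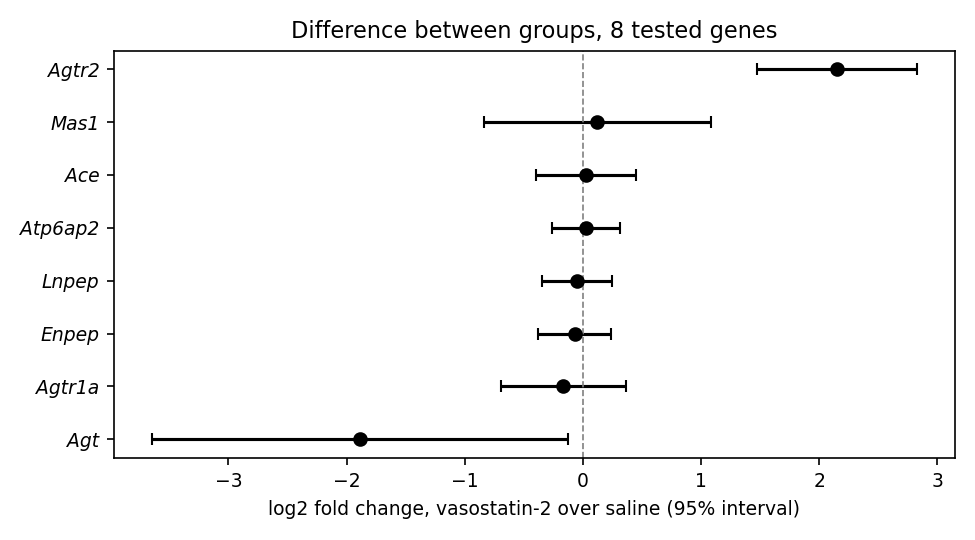
Log2 fold change of vasostatin-2 over saline with its 95% interval for the 8 genes that passed the low-count filter, from the edgeR fit over all 14557 genes. The intervals of Ace, Agtr1a, Enpep, Lnpep and Atp6ap2 lie wholly within 1 of 0, Agtr2 lies far to the right, and the interval of Agt is the widest.

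Ordered by mean TPM over the 6 libraries, the genes fell into 3 tiers. Ace at 88.1 TPM and Atp6ap2 at 79.7 TPM came first, with ranges that overlapped. Enpep at 13.6, Agtr1a at 11.96, Agtr2 at 6.53, Agt at 6.24 and Lnpep at 5.59 TPM formed the middle, and each of these neighbours overlapped the next. Mas1 at 0.398 and Agtr1b at 0.338 TPM came last and overlapped each other. The place of Agtr2 and Agt depended on the group, since Agtr2 averaged 10.6 TPM with vasostatin-2 and 2.41 TPM with saline, and Agt 2.61 TPM with vasostatin-2 and 9.86 TPM with saline. Without saline replicate 3 the mean of Agt over the other libraries was 3.04 TPM. The ranges did not overlap between Atp6ap2 and Enpep, nor between Lnpep and Mas1. Scatter over all 6 libraries, as SD over mean, was 8.68% for Atp6ap2, 8.80% for Lnpep and 13.5% for Enpep. It was 74.4% for Agtr2, 79.6% for the low Agtr1b and 126% for Agt. The value for Agtr2 holds the difference between the groups, as it varied by 25.8% within vasostatin-2 and by 34.4% within saline. Within the vasostatin-2 libraries alone Agt varied by 8.70%, and within the saline libraries by 108%.

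Of 66 further genes in 6 lists of the wider pathway, 60 were tested, and edgeR called 0 in either direction, as it did over all genes. DESeq2 called 0 of them, against 0.776% of all tested genes, and 2 had an unadjusted p under 0.05 in edgeR, against 7.14% of all tested genes. The median log2 fold change was -0.02 over these 60 genes, -0.01 over the 8 tested genes of the set and -0.00068 over all genes tested. Renin itself, Ren1, was low at 0.460, 4.45 and 2.86 CPM in vasostatin-2 arteries, against 2.12, 1.91 and 2.14 CPM in saline arteries, and is named here because it starts the cascade, after its values were seen.

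Other enzymes that can form or break angiotensin peptides were much more abundant in CPM than Ren1. In the list of 15 such enzymes and receptors, 11 were tested, and the median log2 fold change was -0.05. Ctsd, the lysosomal aspartic protease cathepsin D, averaged 2897 ± 320 CPM in vasostatin-2 arteries and 2721 ± 1067 CPM in saline arteries. Prcp, a carboxypeptidase that can cut angiotensin II, averaged 119 ± 3.05 CPM in vasostatin-2 arteries and 122 ± 4.03 CPM in saline arteries. The mast cell proteases Cma1 and Cpa3 had the largest log2 fold changes of the list, -0.47 (SE 0.47) and -0.44 (SE 0.47). Cma1, a chymase, was at 26.4, 14.1 and 13.3 CPM in vasostatin-2 arteries, against 28.8, 10.4 and 35.0 CPM in saline arteries, and so overlapped. Mast cell markers as a list, Cma1 and Cpa3 among them, summed to between 115 and 226 TPM with vasostatin-2 and between 91.9 and 305 TPM with saline, none at 0, and their part in these levels was not tested. Among the 7 relatives of Enpep and Lnpep, all tested, the most abundant was Anpep, aminopeptidase N, with 390 ± 31.9 CPM in vasostatin-2 libraries and 365 ± 67.5 CPM in saline libraries. Rnpep, aminopeptidase B, followed with 118 ± 6.37 CPM in vasostatin-2 libraries and 125 ± 13.6 CPM in saline libraries. Trhde and Aopep had the largest log2 fold changes of that list, 0.36 and 0.10.

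Genes that couple or restrain the type 1 receptor had a median log2 fold change of -0.04 over 13 tested. Rgs5, a brake on Gq signalling in smooth muscle and pericytes, was at 176, 173 and 189 CPM in vasostatin-2 arteries, against 215, 191 and 268 CPM in saline arteries. Its groups did not overlap, yet its log2 fold change of -0.33 (SE 0.13) did not pass (edgeR adjusted p = 0.684). Pericyte markers, Rgs5 among them, summed to between 249.9 and 275 TPM with vasostatin-2 and between 258 and 317 TPM with saline, none at 0, and their part in this was not tested. Arrb1, beta-arrestin 1, averaged 233 ± 10.3 CPM in vasostatin-2 arteries and 227 ± 17.7 CPM in saline arteries, and Prkca, a protein kinase C, 33.1 ± 1.17 CPM in vasostatin-2 arteries and 40.4 ± 9.44 CPM in saline arteries.

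Partners and effectors ascribed to the type 2 receptor had a median of -0.02 over 10 tested. Zbtb16, a zinc finger protein that binds the type 2 receptor, was at 9.04, 14.1 and 7.19 CPM in vasostatin-2 arteries, against 8.39, 22.5 and 35.8 CPM in saline arteries, a log2 fold change of -1.14 (SE 0.51; edgeR adjusted p = 0.710). Bdkrb1, the inducible bradykinin receptor, was at 2.11 ± 0.384 CPM in vasostatin-2 arteries and 3.43 ± 1.43 CPM in saline arteries. Gnai2 and Ppp2ca, the most abundant of the list, had log2 fold changes of 0.02 and -0.12. Nos3, endothelial nitric oxide synthase, is named after its values were seen, as 1 of the 2 genes with an unadjusted p under 0.05. It was at 110, 120 and 132 CPM in vasostatin-2 arteries, against 97.5, 95.1 and 104 CPM in saline arteries, without overlap (log2 fold change 0.29, SE 0.08; edgeR adjusted p = 0.601). Endothelial markers summed to between 1012 and 1118 TPM with vasostatin-2 and between 972 and 1174 TPM with saline. The sum hides a split, as Cldn5 was higher without overlap in vasostatin-2 libraries, and Cdh5 and Erg were lower without overlap. Over all tested genes, 6.07% were higher and 6.72% lower without overlap. The part of endothelial content in the Nos3 level was not tested.

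In the mineralocorticoid arm, 4 of 6 genes were tested. Sgk1, a kinase induced by aldosterone, averaged 122 ± 23.1 CPM in vasostatin-2 arteries and 121 ± 27.1 CPM in saline arteries. Hsd11b1, which regenerates corticosterone, averaged 13.8 ± 6.01 CPM in vasostatin-2 arteries and 13.3 ± 3.25 CPM in saline arteries. Nr3c2, the mineralocorticoid receptor, had a log2 fold change of 0.31 (SE 0.28), and Hsd11b2, which inactivates corticosterone, one of -0.49 (SE 0.26). The 15 V-ATPase genes, partners of Atp6ap2, had a median of -0.02. Atp6v0c and Atp6ap1, the most abundant, had log2 fold changes of -0.10 and 0.02, while Atp6v0a1 had the largest, 0.31 (SE 0.17), and Atp6v0a2 one of -0.13. Hsd11b2, Ppp2ca, Atp6v0a2 and Rgs5 were the 4 list genes whose groups did not overlap with lower values in vasostatin-2 libraries, and Nos3 the 1 with higher values. These 5 of 60 compare with 6.72% of all tested genes lower without overlap and 6.07% higher.

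**Figure D5:**
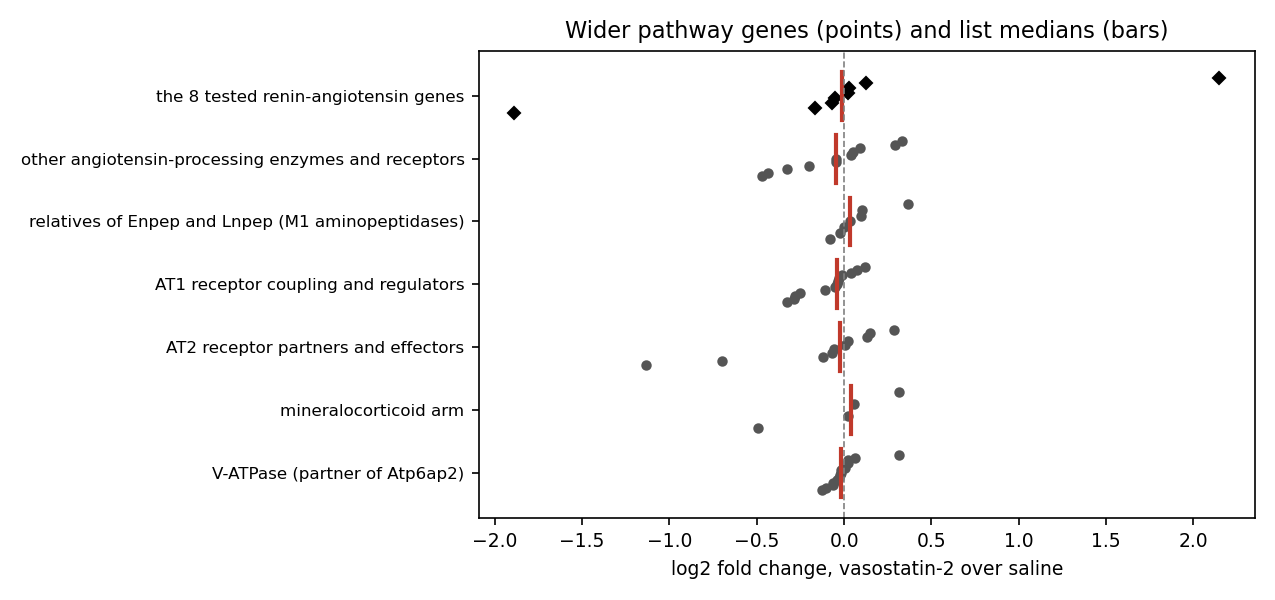
Log2 fold change of vasostatin-2 over saline for the 8 tested genes of the set (diamonds) and for the 60 tested genes of 6 wider lists (points), with the median of each row as a bar. All medians lie within 0.05 of 0, and only Agtr2, Agt and Zbtb16 lie beyond 1 in either direction.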

How the data were processed

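Total RNA was poly(A)-enriched and sequenced on a BGISEQ platform, per the labels' protocols. HISAT2 2.1.0, the build GRCm38.p6 and DESeq2 1.26.0 are listed, per the submitters' processing notes. The counting tool and strandedness are not given in the sources used here, so antisense and overlapping genes could not be separated. The authors deposited an estimated count, a TPM and an FPKM value per gene and library. The authors' deposited comparison (log2 fold change, p-value, q-value) is quoted only where named.

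Estimated counts were rounded, filtered with filterByExpr (14557 of 18476 genes kept), scaled by TMM (factors 0.985 to 1.01) and tested in edgeR 4.0.16 (R 4.3.3), with robust quasi-likelihood, treatment as the only term and Benjamini-Hochberg adjustment over all genes. Intervals use the fit's SE and degrees of freedom. CPM uses the scaled library sizes, and log2 CPM a prior count of 2. DESeq2 1.42.0 (584 adjusted p-values undefined), limma-voom and limma on log2(TPM + 0.1) (limma 3.58.1) were alternatives. The edgeR step was checked on simulated counts with known fold changes.

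The members and lists were chosen with earlier results of these data known. From each list the 2 most abundant genes and the 2 with the largest log2 fold change were named, at a mean of at least 1 CPM. Same-group libraries differed by far more than counting noise. Sequences are from RefSeq (GRCm38.p6) and GENCODE M21, and 8 of the 9 genes had a promoter window. At 3 per group the smallest exact permutation p is 0.1.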

Additional observations from a re-analysis of the deposited data

How the results depend on the processing

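The count of genes called by edgeR was 0, and it stayed 0 with DESeq2 size factors, upper quartile scaling, library totals, no low-count filter, a filter of 1 CPM in 3 libraries, limma-voom and limma on log2 TPM. DESeq2's own test gave 113 genes, of which 1 was among the 9. Without 1 library at a time the edgeR count lay between 0 and 2, the 2 coming without saline replicate 2. Among the 9 genes and among the 66 genes of the wider lists it was 0 each time (0 to 0). The log2 fold change of Agtr2 lay between 1.90 and 2.45 over the 15 alternatives. That of Agt lay between -2.28 and -0.50, the last without saline replicate 3, and was -1.34 for limma on log2 TPM. Ace, Agtr1a, Enpep, Lnpep, Atp6ap2 and Mas1 were near 0 and changed sign under between 1 and 4 alternatives each. Agtr1b was tested only with no filter or without certain libraries. In the order of levels, between 6 and 9 of the 9 genes kept their place when 1 library was left out, and all 9 did with rescaled FPKM. With replicate number as a block the edgeR count was 0, also among the 9 and in the lists, and the log2 fold changes of Agtr2 and Agt were 2.16 and -1.40. Same-numbered libraries of the groups correlated at -0.12, 0.03 and 0.03 in their deviations from group means. Differently numbered libraries correlated at between -0.22 and 0.22. With so few libraries these values cannot decide whether the numbers pair them. Counts between 51 and 92 in the saline libraries limit the precision for Agtr2, and Mas1 and Agtr1b are limited by counts under 20.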
